A study of Mus musculus with 8 samples.

Results

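Keratins, claudins and desmosomal genes were described in subcutaneous white adipose tissue of mice fed freely or kept on calorie restriction. The genes were chosen by symbol alone: every keratin (Krt), claudin (Cldn), desmoglein (Dsg), desmocollin (Dsc) and plakophilin (Pkp), together with Epcam and Cdh1, including genes at 0. The rule found 84 of the 50952 genes of the table. They comprised 52 keratins, 20 claudins, 9 desmosomal cadherins, 1 plakophilin, Epcam and Cdh1. The annotation used here (GENCODE M21) holds 93 protein-coding genes that match, and 10 of them had no row: Cldn1, Cldn5, Cldn10, Cldn12, Cldn15, Krt222, Krt36, Pkp1, Pkp2 and Pkp3 were not analysed here.

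All animals were wild-type C57BL/6J mice, and both diets ran for 6 months, from 3 to 9 months of age. One group ate ad libitum (AL) and the other was calorie restricted (CR). Of the 8 mice in the labels each diet had 4. Libraries AL2 to AL4 and CR1 to CR4, 7 in all, are the ones whose values were at hand. The column numbers differ from the mouse numbers of the labels, so a library could be assigned to a diet but not to a mouse, and p-values measure the spread between these libraries. Values are TPM, transcript levels scaled by gene length and library total, as the authors deposited them. The smallest false discovery rate (FDR) in the authors' deposited table was 0.05, so genes below it, of any family, were not analysed here and the counts of called genes do not include them.

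The libraries held 4147828 reads (CR4) to 8897778 reads (AL4) in rows with a known length, as recovered from the TPM steps. One read on a gene of 1500 bases was worth 0.121 to 0.223 TPM. The rows held 49.0 to 53.1% of each AL library's TPM and 42.9 to 45.01% of each CR library's. The median gene was 0.20 lower in CR on the log2 scale, and each change is also given relative to the median, after median-ratio scaling of the libraries. The adipocyte hormone gene Adipoq stood at 5863 to 8739 TPM in these libraries, which are labelled as fat tissue.

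Epithelia line surfaces and ducts, and their cells are held together by junctions. Keratins are paired intermediate filament proteins, an acidic type I partner with a basic type II partner; Krt8 and Krt18 form the pair of simple, single-layered epithelia, Krt5 and Krt14 that of basal cells of stratified and glandular epithelia, and Krt1 and Krt10 that of differentiating epidermal cells. Claudins seal tight junctions, desmogleins and desmocollins are the cadherins of desmosomes, and plakophilins link such cadherins to the filaments. Fat cells themselves are not epithelial, but the subcutaneous depot of the mouse lies under the skin and can hold mammary ducts, nerves and vessels.

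Krt8, Krt18 and Epcam, genes of simple epithelium, had their highest level in the same library, CR4, on 9, 23 and 9 reads. Of the other keratins of simple epithelium, Krt7 and Krt19 were also highest there, but Krt20 was highest in AL3 and Krt23 in CR2. Krt10, the most abundant keratin with a row, did not follow Krt8, Krt18 and Epcam. For this reason the stretches before the start sites of Krt8, Krt18, Epcam and Krt10 are shown. Each is the 250 bases before the RefSeq start, 5′ to 3′ on the gene's own strand, in build GRCm38.p6. They lie at chr15:102004343-102004592 on the minus strand for Krt8, chr15:102027966-102028215 on the plus strand for Krt18, chr17:87635729-87635978 on the plus strand for Epcam and chr11:99389365-99389614 on the minus strand for Krt10. Capitals mark CACCTG on either strand (CAGGTG when read on the other), the E-box known for binding repressors of the Snail and Zeb families, and TATAAA, the TATA box.
Krt8: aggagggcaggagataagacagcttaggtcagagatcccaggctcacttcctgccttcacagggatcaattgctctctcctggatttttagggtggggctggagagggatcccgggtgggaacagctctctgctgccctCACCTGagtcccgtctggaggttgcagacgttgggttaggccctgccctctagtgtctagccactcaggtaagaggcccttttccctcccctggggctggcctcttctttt
Krt18: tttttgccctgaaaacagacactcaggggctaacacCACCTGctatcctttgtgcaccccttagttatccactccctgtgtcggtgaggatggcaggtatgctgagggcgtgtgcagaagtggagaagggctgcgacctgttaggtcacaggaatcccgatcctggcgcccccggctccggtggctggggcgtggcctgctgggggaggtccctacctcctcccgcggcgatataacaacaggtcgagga
Epcam: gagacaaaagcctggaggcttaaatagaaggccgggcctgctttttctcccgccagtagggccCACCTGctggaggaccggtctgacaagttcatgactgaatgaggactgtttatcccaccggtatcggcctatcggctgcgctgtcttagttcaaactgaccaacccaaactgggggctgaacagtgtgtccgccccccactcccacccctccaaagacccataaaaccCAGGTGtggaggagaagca
Krt10: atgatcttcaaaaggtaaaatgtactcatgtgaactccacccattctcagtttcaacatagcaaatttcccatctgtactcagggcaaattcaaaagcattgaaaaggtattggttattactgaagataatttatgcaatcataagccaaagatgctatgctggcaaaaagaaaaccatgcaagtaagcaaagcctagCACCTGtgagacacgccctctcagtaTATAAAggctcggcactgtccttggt

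Counting back from the RefSeq start, with -1 as the base before it, the Krt8 window held 1 CACCTG at -111 and the Krt18 window held 1 at -214. The Epcam window held 2, at -187 and -19, and the Krt10 window held 1, at -52. Of the 4 windows that of Krt10 alone held TATAAA, at -26. Positions are of the motif's first base as printed. GENCODE M21 places the start of Krt8 140 bases and that of Krt18 36 bases upstream of the RefSeq start, so that the Krt8 motif lies within the gene by that annotation. GGGCGG, the GC box, was searched as well and lay in the Epcam window alone, at -58. Of 32851 RefSeq promoter windows, each 250 bases long, 17.2% held CACCTG, 12.4% held TATAAA and 32.7% held GGGCGG, on either strand. Among 60 windows matched to 53 of the members, 21 held CACCTG, 19 held TATAAA and 10 held GGGCGG. The motifs were chosen after the sequences were seen, and a match is no evidence of binding. Krt8 and Krt18 are neighbours, with 23697 bases between them in GENCODE M21, and Krt18 is the type I gene that lies in the type II cluster.

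The rows of the table include noncoding genes and pseudogenes as well as the members, and protein-coding genes alone were not compared. Of the members, 40 of 84 (47.6%) were at 0 in every library, against 50.04% of all rows. Of the 44 above 0, 13 were above 0 in 1 library and 13 in all 7, and 27 had 1 to 10 reads over all libraries together. A count of 0 in the shallowest library allows up to 0.144 to 1.58 TPM, depending on gene length (3 reads, counting error only). Only 7 members had more than 100 reads in total, and Pkp4 alone held 7046 of the members' 9511 reads (74.1%).

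The share at 0 varied by kind of gene. Of 23 keratins of hair and inner root sheath 17 were at 0, as were 10 of 20 keratins of stratified epithelium, 7 of 20 claudins and 4 of 9 desmosomal cadherins. None of the 6 keratins of simple epithelium was at 0 in every library. The keratins lie in a pair of clusters: 25 on chromosome 11 (99279959 to 100269871, GRCm38), of which 14 were silent, and 27 on chromosome 15 (101347444 to 102032027), of which 15 were silent. Krt10 and Krt19 in the first cluster and Krt18, Krt79 and Krt80 in the second had a mean of at least 1 TPM.

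**Figure D1:**
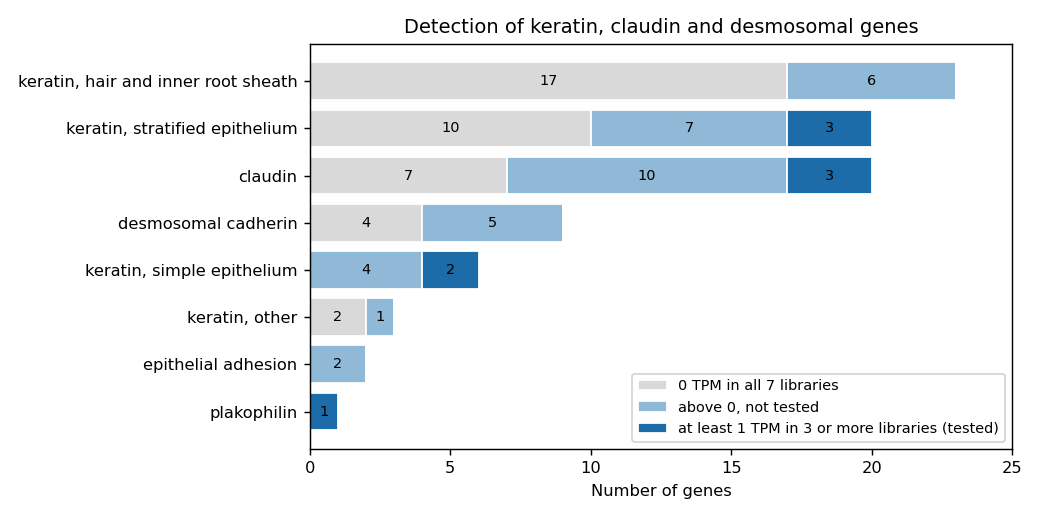
Number of genes (horizontal axis) in each kind of keratin, claudin and junction gene, split into genes at 0 TPM in all 7 libraries, genes above 0 but too low to test, and genes with at least 1 TPM in 3 or more libraries. Hair keratins were mostly silent (17 of 23) and only 9 of all 84 genes reached the level for a test.

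A gene was tested when it had at least 1 TPM in at least 3 libraries, which 9 members did: Pkp4, Krt10, Cldn19, Krt79, Krt19, Krt80, Krt18, Cldn3 and Cldn11. The other 75 were not tested, and the highest of them, Cdh1, had a mean of 0.965 TPM. With limma on log2(TPM + 1) and Benjamini-Hochberg adjustment over all genes, 0 of the 9 members were called at an adjusted p under 0.05, against 16.4% of all tested genes (0.517% higher in CR and 15.9% lower). At an unadjusted p under 0.05 there were 3 members, where the background was 33.7%. After median-ratio scaling 0 of 9 were called against 0.0659% of all genes (0.047% higher and 0.0188% lower), with 1 at an unadjusted p under 0.05, against 27.8%. voom on the recovered reads called 0 of 9 members and 0% of all genes, with 4 members at an unadjusted p under 0.05, against 30.5%. The median change of the 9 was -0.44 on the deposited scale, where the median over all genes was -0.20, and -0.22 after rescaling, against -0.01.

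The groups did not overlap for 3 of the 9, Krt10 (higher in CR) and Krt80 and Cldn19 (lower); over all tested genes 31.9% did not overlap, 2.26% higher and 29.6% lower. After rescaling only Krt10 remained apart, against 25.6% of all tested genes (13.3% higher and 12.3% lower). For 7 members the FDR in the authors' deposited table was under 1, the lowest being 0.0891 for Krt80 and 0.130 for Krt10, and 77 stood at 1.

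**Figure D2:**
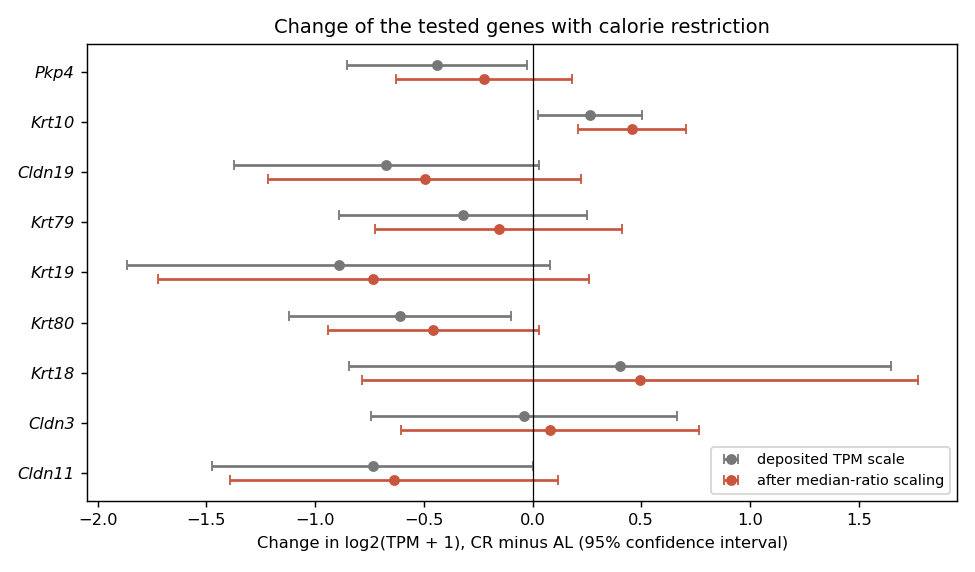
Change in log2(TPM + 1), CR minus AL, with its 95% confidence interval (horizontal axis), of the 9 tested genes on the deposited TPM scale and after median-ratio scaling. After rescaling only the interval of Krt10 lies clear of 0, from 0.21 to 0.70, and its adjusted p was 0.0777.

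The genes of simple epithelium were low and varied from library to library. Krt18, the type I partner of that pair (chromosome 15, 102028180 to 102032027, plus strand), stood at 0.821, 0.457 and 1.01 TPM in AL2 to AL4 and at 1.496, 0.510, 0.180 and 5.36 TPM in CR1 to CR4. Krt8, the type II partner, was named after its values were seen and stood at 0.121, 0 and 0.277 TPM in AL and 0.823, 0, 0 and 1.54 TPM in CR. Both were highest in CR4, where Krt18 had 23 reads and Krt8 had 9, and second highest in CR1. Krt18 exceeded Krt8 in all 7 libraries. A copy of Krt8, the pseudogene Krt8-ps, has a row of its own and was above 0 only in CR1 (0.284 TPM), so Krt8 reads could be split.

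Krt19, a type I keratin of ducts and other simple epithelia (chromosome 11, 100140810 to 100148665, minus strand), stood at 4.20, 4.60 and 4.09 TPM in AL. In CR it stood at 1.88, 1.05, 0.696 and 5.59 TPM. CR1 to CR3 were below every AL library and CR4 was above them all. The CR mean was 2.31 ± 2.25 TPM (SD, n = 4), 1.21 ± 0.609 TPM (SD, n = 3) without CR4, and the AL mean was 4.30 ± 0.266 TPM (SD, n = 3). The change was -0.89 ± 0.42 (SE) on the log2 scale (limma, adjusted p = 0.180), or -0.73 ± 0.43 relative to the median gene (adjusted p = 0.297). Without CR4 it was -1.29 ± 0.24 (limma, adjusted p = 0.035), which passed, but after rescaling it was -1.14 (adjusted p = 0.118).

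For Krt18 the change was 0.40 ± 0.54 (limma, adjusted p = 0.640), with AL at 0.761 ± 0.280 TPM (SD, n = 3) and CR at 1.89 ± 2.38 TPM (SD, n = 4). Without CR4 the CR mean was 0.729 ± 0.685 TPM (SD, n = 3), and the gene no longer reached the level for a test. The CR mean of Krt18 therefore lay above the AL mean with CR4 and below it without. The other keratins of simple epithelium were lower: Krt20, of gut and bladder lining, stood at 0.857, 1.70 and 0.938 TPM in AL and 0.697, 0.127, 0.268 and 0.695 TPM in CR. Its groups did not overlap, on 27 reads in AL and 12 in CR, and it was highest in AL3. Krt23 had 1 read in AL3, 3 in CR2 and 2 in CR3, and none in CR4. Krt7, a glandular type II keratin named after its values were seen, ranged from 0.0347 to 0.285 TPM and was highest in CR4.

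Epcam, the adhesion protein that marks most simple epithelia, stood at 0.215, 0 and 0.577 TPM in AL and 0.122, 0, 0 and 1.37 TPM in CR. Of its 19 reads 9 came from CR4 and 7 from AL4. Cldn7, a claudin of ducts that binds Epcam, was named after its values were seen and showed 0.363, 0 and 0.0928 TPM in AL and 0.138, 0, 0 and 0.687 TPM in CR. Krt5 and Krt14, the basal pair, were above 0 only in CR4, at 0.305 and 0.381 TPM, with 2 reads each. Of the 44 members above 0, 13 were highest in CR4, 11 in AL4, 7 in AL3, 4 in AL2 and 3 in each of CR1, CR2 and CR3. CR4 was the shallowest library and AL4 the deepest.

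Among genes of mammary epithelium that are not members, some were highest in CR4 as well. Of 11 such genes with a row, 3 were at 0 throughout (Csn1s1, Csn1s2a and Csn2, milk caseins), and 6 of the other 8 were highest in CR4; Lalba was highest in AL3 and Wap in AL4, both milk protein genes. Their summed level was 0.290, 1.39 and 0.824 TPM in AL and 0.109, 0.0416, 0.546 and 6.29 TPM in CR, on 51 reads in CR4 and 1 to 8 elsewhere. Csn3 (kappa-casein), Wfdc18 and Ltf (lactoferrin), named after their values were seen, reached 1.21, 2.74 and 2.04 TPM in CR4. The other genes highest in CR4 rested on few reads. Btn1a1 and Pgr had 2 reads each there, and Elf5 had 1 there and 1 in CR2. In CR4, the shallowest library, 1 read was worth the most TPM. The 9 members on the mammary list summed to 6.28, 6.88 and 7.48 TPM in AL and 5.10, 3.31, 1.84 and 16.8 TPM in CR, with 7 of the 9 highest in CR4; Cldn3 was highest in AL3 and Cldn4 in CR3. In bulk tissue fewer cells of a type and less RNA per cell cannot be told apart, and the part of other cell types in these levels was not tested. The mesothelium list shares Krt7, Krt8, Krt18 and Krt19. Its 7 other genes with a row summed to 5.13, 5.29 and 3.66 TPM in AL. In CR they summed to 4.62, 3.43, 5.28 and 5.49 TPM. CR4 was highest, close to AL3 and CR3, and its sum was Lrrn4 alone. Of those 7, 3 were at 0 in every library, and Lrrn4 held most of the sum (2.87 to 5.49 TPM). Msln was highest in AL3 and Upk3b and Wt1 in AL4, and each was at 0 in CR4.

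**Figure D3:**
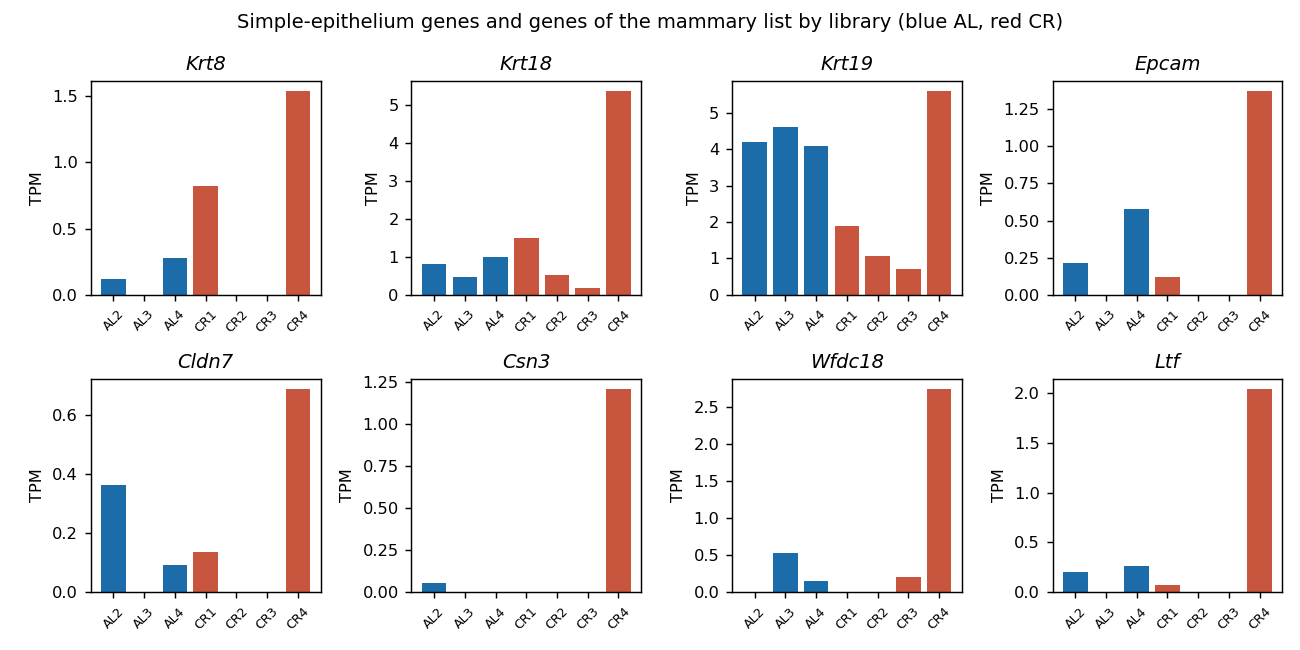
TPM (vertical axis, from 0, each panel on its own scale) in each library of 5 members of simple epithelium and 3 secretory genes of the mammary list that are not members; blue bars are AL and red bars CR libraries. The 8 genes were picked after their values were seen, as ones highest in CR4, and Krt19 is also at 4.09 to 4.60 TPM in AL.

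The keratins of stratified epithelium were led by Krt10, the type I keratin of differentiating epidermis (chromosome 11, 99385254 to 99389364, minus strand). It was the highest keratin with a row in all 7 libraries. Its level was 6.14, 6.21 and 7.35 TPM in AL and 8.26, 7.86, 8.42 and 7.76 TPM in CR. Every CR library was above every AL library. The means were 6.57 ± 0.683 TPM (SD, n = 3) and 8.07 ± 0.319 TPM (SD, n = 4), on 181 and 251 reads. The change was 0.27 ± 0.10 (limma, adjusted p = 0.115) and 0.46 ± 0.11 relative to the median gene (95% confidence interval 0.21 to 0.70, adjusted p = 0.0777), so it missed the threshold on both scales. Its adjusted p was 0.0561 to 0.240 over 24 settings, the reported one included, and the direction held in each.

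The usual partner of Krt10 was all but missing. Krt1, named after its values were seen, was above 0 only in AL3 (0.149 TPM, 2 reads), and Krt2, of the upper epidermis, was at 0 in every library. The antisense gene Gm11940 overlaps Krt10 and stood at 0 to 1.29 TPM, and whether the counting used strand is not given in the sources used here.

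Krt80, a type II keratin found in many epithelia (chromosome 15, 101347444 to 101370162, minus strand), stood at 2.51, 4.00 and 2.21 TPM in AL and 2.02, 1.57, 1.13 and 1.41 TPM in CR. Every CR library was below every AL library, and the means were 2.91 ± 0.961 TPM (SD, n = 3) and 1.53 ± 0.371 TPM (SD, n = 4). The change was -0.61 ± 0.22 (limma, adjusted p = 0.0974) and -0.46 ± 0.21 relative to the median gene (adjusted p = 0.202), not called on either scale.

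Krt79, known from the ducts of sebaceous glands and the upper hair follicle (chromosome 15, 101929332 to 101940324, minus strand), stood at 2.73, 3.31 and 5.32 TPM in AL and 2.26, 2.16, 4.18 and 2.68 TPM in CR. AL4 and CR3 were the high libraries and the groups overlapped. The change was -0.32 ± 0.25 (limma, adjusted p = 0.401), and after rescaling it was -0.15 ± 0.25 (adjusted p = 0.707).

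The rest of this class was near 0. Krt4, of oral and oesophageal lining, had 9 reads in AL and 1 in CR, and Krt78 had 4 in AL and 0 in CR; both were named after their values were seen. Among hair keratins, Krt28 (inner root sheath) had 2 reads in AL and 12 in CR, Krt27 had 0 and 2, and Krt87 had 4 and 0. Krt88 had 3 reads, all in AL4. In the fit without a filter Krt4, Krt87, Krt28 and Krt78 had an unadjusted p under 0.05, but none passed (limma, adjusted p 0.0731, 0.1002, 0.192 and 0.219).

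**Figure D4:**
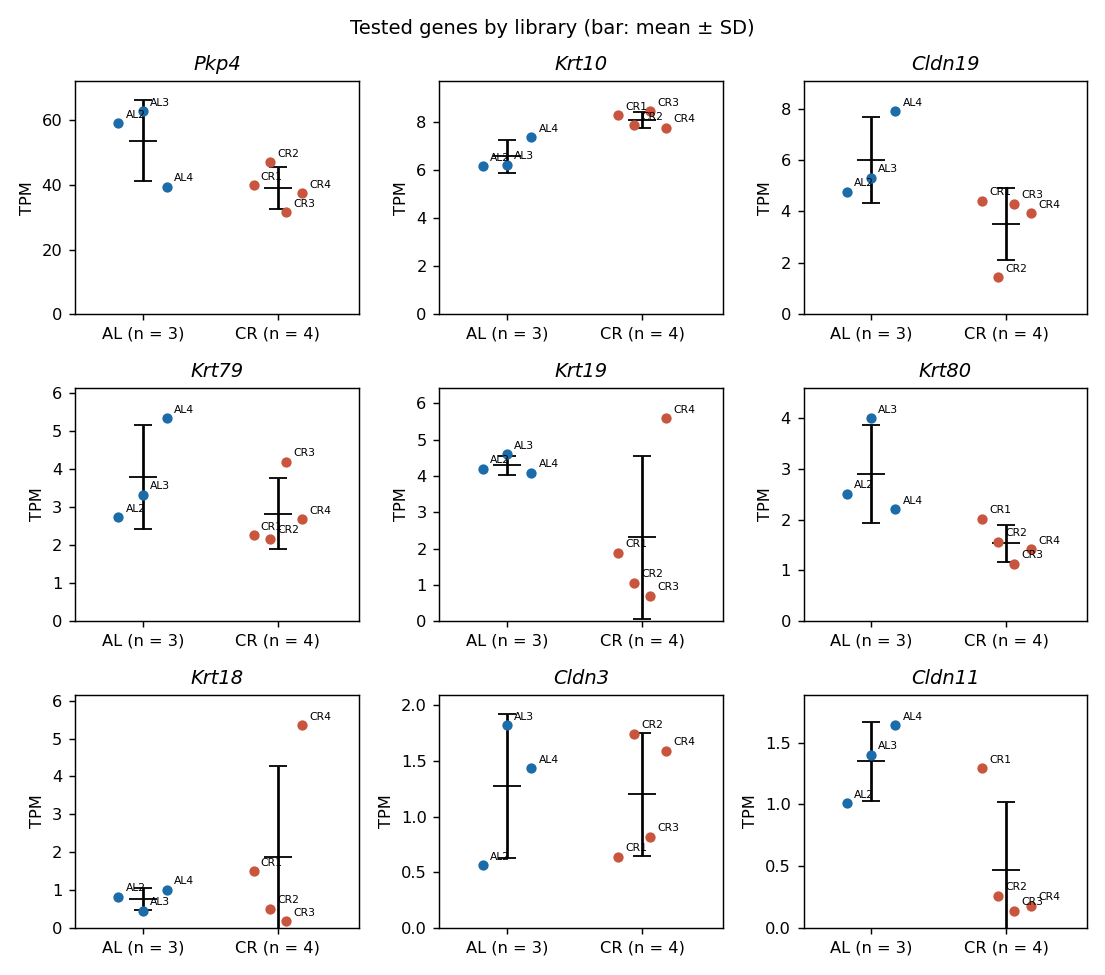
TPM (vertical axis, from 0, each panel on its own scale) of the 9 tested genes; points are libraries, and bars give the mean ± SD of 3 AL and 4 CR libraries. The lower SD bars of Krt18 and Cldn11 in CR end at the axis because they would run below 0; Krt10 sits between 7.76 and 8.42 TPM in CR, above all AL points.

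Among the 20 claudins with a row Cldn19 was the highest (chromosome 4, 119255414 to 119262438, plus strand). It is known from kidney tubules and from the myelinating Schwann cells of peripheral nerve. It stood at 4.76, 5.31 and 7.89 TPM in AL and 4.41, 1.43, 4.30 and 3.92 TPM in CR, so that every CR library was below every AL library. The change was -0.67 ± 0.31 (limma, adjusted p = 0.163) and -0.50 ± 0.31 relative to the median gene (adjusted p = 0.328), and the groups overlapped after rescaling.

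Sox10 and Mbp, genes of the Schwann cell list, shared their highest library with Cldn19. Sox10, the glial transcription factor, stood at 7.43, 9.25 and 10.96 TPM in AL and 7.40, 3.68, 5.25 and 6.80 TPM in CR. Mbp, a myelin protein, stood at 51.2, 59.2 and 96.6 TPM in AL and 70.5, 44.4, 54.2 and 68.2 TPM in CR. Sox10, Mbp and Cldn19 were all highest in AL4 and lowest in CR2, and none of them was called (limma, deposited scale and after rescaling). Of the list's other genes, 2 were also highest in AL4 but lowest in CR4. Sox10 and Mbp were named after their values were seen, and the part of nerve in the Cldn19 level was not tested.

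**Figure D5:**
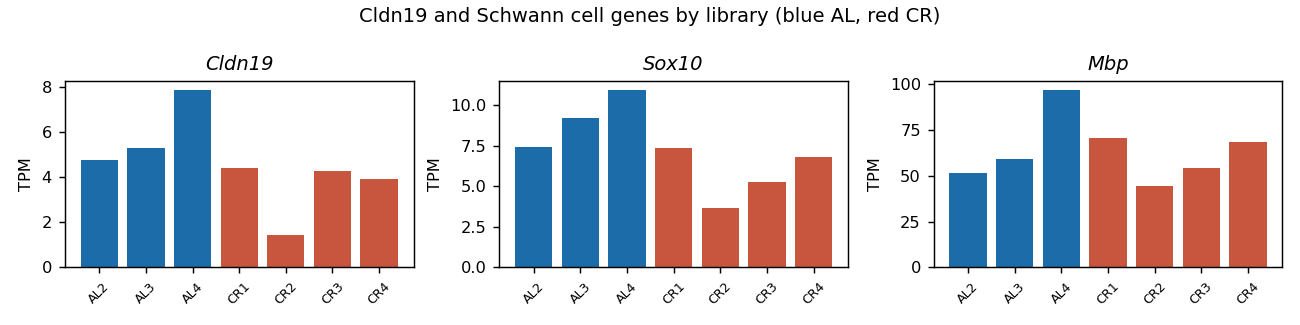
TPM (vertical axis, from 0, each panel on its own scale) in each library of Cldn19 and of the Schwann cell genes Sox10 and Mbp, which are not members; blue bars are AL and red bars CR libraries. In all 3 panels AL4 is the highest library and CR2 the lowest.

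Cldn11, the claudin of central myelin and of Sertoli cells (chromosome 3, 31149920 to 31164324, plus strand), stood at 1.01, 1.40 and 1.64 TPM in AL and 1.29, 0.261, 0.138 and 0.179 TPM in CR. CR1 lay within the AL range and the other CR libraries lay below it. It had 33 reads in AL and 13 in CR, of which 9 came from CR1, and it passed the filter mostly through AL. The change was -0.74 ± 0.32 (limma, adjusted p = 0.149) and -0.63 ± 0.33 relative to the median gene (adjusted p = 0.244).

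Cldn3, a sealing claudin of many epithelia (chromosome 5, 134986214 to 134987472, plus strand), showed no order by diet. It stood at 0.562, 1.82 and 1.44 TPM in AL and 0.640, 1.75, 0.820 and 1.59 TPM in CR, on 20 and 22 reads. Its change was -0.04 ± 0.31 on the deposited scale (95% confidence interval -0.74 to 0.66; limma, adjusted p = 0.943) and 0.08 ± 0.30 after rescaling (adjusted p = 0.877). Cldn20, with a mean of 0.745 TPM, lies within Tfb1m on the other strand, which stood at 4.54 to 8.52 TPM, so its 14 reads could belong to that gene. The other claudins above 0 had 1 to 10 reads in all.

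Of the desmosomal genes with a row only Pkp4 was abundant (chromosome 2, 59160850 to 59355208, plus strand). It is also a protein of adherens junctions and is made in many cell types. It stood at 59.0, 62.7 and 39.4 TPM in AL and 40.0, 47.0, 31.5 and 37.4 TPM in CR. AL4 lay among the CR libraries, so the groups overlapped. The means were 53.7 ± 12.5 TPM (SD, n = 3) and 39.0 ± 6.43 TPM (SD, n = 4). The change was -0.44 ± 0.18 (limma, adjusted p = 0.130), or -0.22 ± 0.18 relative to the median gene (adjusted p = 0.431). Without AL4 it was -0.64 ± 0.15 (limma, adjusted p = 0.0349), and after rescaling without AL4 it was -0.41 (adjusted p = 0.146).

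The cadherins of desmosomes were almost absent: the 9 genes shared 41 reads over all libraries. Dsg1a, the desmoglein of upper epidermis, had 3 reads in AL and 13 in CR, and Dsc3, a desmocollin of basal cells, had 7 in AL and 0 in CR. Dsc2, the desmocollin most widely found in epithelia, had 1 and 5. Dsg1a was higher and Dsc3 lower in every CR library than in every AL library, but at 0 to 4 reads per library. Over the 44 members above 0, the groups of 9 did not overlap on the deposited scale (Krt10 and Dsg1a higher; Krt80, Cldn19, Krt20, Krt4, Krt78, Krt87 and Dsc3 lower), against 17.2% of all rows above 0 (1.57% higher and 15.6% lower). After rescaling 8 did not overlap, Krt80 and Cldn19 no longer among them and Krt28 added as higher, against 13.9% of all rows above 0 (6.33% higher and 7.56% lower). Without a filter limma called 0 of the 44, against 2.91% of all rows above 0 (0.0825% higher and 2.83% lower), and 11 had an unadjusted p under 0.05, against 18%.

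Cdh1, E-cadherin of the adherens junction, was just below the level for a test, at 0.825, 1.22 and 1.90 TPM in AL and 0.881, 0.320, 0.734 and 0.878 TPM in CR. AL2 lay within the CR range and AL4 was the highest library. It had 81 reads in AL and 46 in CR, and its FDR in the authors' deposited table was 0.204. In CR4, where Epcam and Krt18 were highest, Cdh1 was at 0.878 TPM, close to CR1.

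The genes that work with claudins and desmosomes were read from lists chosen with earlier results of these data known. Of 24 tight junction partners 15 had a row and 9 were tested. Among the 8 that reached 1 TPM in some CR library 3 fell on the deposited scale (limma, against 15.9% of all tested genes lower). Jam2, an adhesion molecule of endothelial junctions, changed by -0.48 ± 0.09 (limma, adjusted p = 0.0188), and Esam, an endothelial one, by -0.59 ± 0.12 (adjusted p = 0.0205). Prkci, a polarity kinase, changed by -0.34 ± 0.09 (limma, adjusted p = 0.0382). Crb3, a polarity protein and the ninth gene tested, changed by -1.10 ± 0.28 (limma, adjusted p = 0.0335). Its reads were 12, 8 and 11 in AL and 0, 3, 0 and 2 in CR, it passed the filter through AL alone, and it overlaps Dennd1c and Slc25a23. After median-ratio scaling 0 of the 4 were called, with an adjusted p of 0.150 for Jam2, 0.118 for Esam, 0.294 for Prkci and 0.0880 for Crb3 (limma). The calls also rested on single libraries. Without AL3 the adjusted p was 0.0522 for Jam2, 0.0633 for Esam and 0.110 for Prkci (limma, deposited scale). Prkci also missed the threshold without AL4, CR1, CR2 or CR3, at 0.0711 to 0.0904, and Crb3 without CR1, CR2 or CR3, at 0.0551 to 0.0710.

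Of 24 desmosome and cornified envelope partners 17 had a row, 5 were at 0 and 5 were tested, and 0 were called (limma). Cdsn, corneodesmosin of the upper epidermis, was the most abundant at 75.5 to 231 TPM, and Sfn, a stratified epithelium gene, stood at 2.08 to 6.22 TPM. Cdsn was high in every library, while Krt1, Krt2, Dsg1c, Dsc1 and Dsg3, named after their values were seen, were at or near 0. Krt10, also of epidermis, stood at 6.14 to 8.42 TPM. Of 23 epithelial regulators and basement membrane genes 20 had a row, 5 were tested and 0 were called; Itga6, an integrin of basal cells and endothelium, stood at 25.5 to 34.8 TPM and Spint2, a protease inhibitor, at 4.48 to 7.20 TPM.

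Marker lists of other cells were read as well, and the share of each cell type in the tissue was not tested. Of 10 tested endothelial genes 4 were called lower on the deposited scale, against 15.9% of all tested genes, and 0 after rescaling, against 0.0188%. The list summed to 515 to 603 TPM in AL and 388 to 472 TPM in CR. Of 6 tested adipocyte genes 1 was called lower on the deposited scale and 0 after rescaling, against the same shares. No gene was called among the tested ones of the lists for lymphatic endothelium (2), Schwann cells (6), skeletal muscle (1), lymph node cells (6), adipose progenitors (1), mammary epithelium (3) and mesothelium (3), by limma on either scale. Genes of these lists without a row were not analysed here, and the counts of calls do not cover them. Rows were present for 3 of 7 lymphatic endothelial genes, 6 of 11 Schwann cell genes and 2 of 11 skeletal muscle genes. They were also present for 11 of 13 lymph node genes, 1 of 9 adipose progenitor genes and 20 of 24 mammary genes. For mesothelium it was 11 of 12, for endothelium 10 of 13 and for adipocytes 6 of 12. The skeletal muscle sum was 1.59 to 64.2 TPM in AL, highest in AL2, and 0.325 to 9.80 TPM in CR. In AL2 it was almost Myh1 alone (64.15 TPM). The lymph node sum was 6.01 to 20.2 TPM in AL and 4.79 to 13.6 TPM in CR.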

How the data were processed

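RNA of subcutaneous fat was sequenced as paired-end libraries, and removal of ribosomal RNA as well as poly-A selection appears in the labels' protocols. Build GRCm39, edgeR 3.38.4, featureCounts 2.0.3, SAMtools 1.17, STAR 2.7.10b and FastQC 0.12.1 are listed, without their roles, per the submitters' processing notes. Not given in the sources used here were strand and multi-mapping settings, the annotation and the test behind the FDR. The authors deposited TPM per gene and library and 1 adjusted p-value (FDR) per gene.

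The table's columns were assigned to diets by name (0 columns were left over). Lengths, positions and overlaps came from GENCODE M21 (GRCm38) and promoters from RefSeq (GRCm38.p6); no coordinate was converted. Multiplying TPM by length and dividing by the value of 1 read gave reads: in 20840 (94.55%) of 22041 rows judged, those with at most 1000 reads in any library, every value lay within 0.05 of a whole number, as did those of all 84 members.

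The 10630 rows that reached 1 TPM in 3 or more libraries were fitted as log2(TPM + 1), with a pseudocount of 1 TPM, by limma 3.58.1 in R 4.3.3 with a variance trend and diet as the only term. Tests were two-sided, with Benjamini-Hochberg adjustment across every tested row and a threshold of 0.05; changes on this scale understate those of low genes. Relative changes came from the same fit after dividing each library by its median ratio over tested genes (0.924 to 1.17). voom with TMM scaling was run on the recovered reads. Intervals of reads cover counting error only.

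Members, lists and tests were chosen with earlier results of these data known. Named members were those tested, those with a mean of at least 1 TPM and the 3 highest of each kind; of the partner and regulator lists, the called genes or the 2 highest. Python 3.11.15, numpy 2.4.6, pandas 2.3.3 and matplotlib 3.10.9 were used.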

Additional observations from a re-analysis of the deposited data

Results flagged for a closer look

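Of 32 groups of 4 CR libraries examined, 7 held a library whose distance from the nearest other was a large share of the group's range, where chance gives about 1 in 20 for groups picked without regard to their values. That rate does not hold here for Csn3, Wfdc18 and Ltf, which were named after their values were seen, nor for groups with several libraries at or near 0. The groups were those of the named members and of the named genes of the other lists. Of these, 4 are CR4 values of genes of simple or mammary epithelium. Epcam was at 1.37 TPM in CR4 and at 0 to 0.122 TPM in the other CR libraries. Csn3 was at 1.21 TPM in CR4 and 0 in the others, Wfdc18 at 2.74 TPM against 0 to 0.212 TPM, and Ltf at 2.04 TPM against 0 to 0.0779 TPM. These rest on 9, 15, 10 and 21 reads in CR4. Cldn19 was at 1.43 TPM in CR2 and 3.92 to 4.41 TPM in the others. Cldn11 was at 1.29 TPM in CR1 and 0.138 to 0.261 TPM in the others. Dsg1a was at 0.0859 TPM in CR2 and 0.177 to 0.189 TPM in the others, on 2 to 4 reads per library.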

How the results depend on the processing

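On the deposited scale limma called 1748 genes. It called 742 without a filter, 7 after median-ratio scaling, 2 with both changes and 603 to 1440 when a library was left out (9, 3, 58, 2, 7, 5 and 7 after scaling as well, leaving out AL2, AL3, AL4, CR1, CR2, CR3 and CR4); voom on recovered reads called 0, with 3116 at an unadjusted p under 0.05. Of the members, 0 were called in the main setting and 0 to 1 when a library was left out. The calls were Krt19 without CR4 and Pkp4 without AL4, and neither was called after median-ratio scaling. Krt10, Krt80, Pkp4, Cldn11, Cldn19, Krt19 and Krt18 kept their direction in each setting that tested them; Krt18 was not tested when its filter was no longer met, as without CR4. Krt79 turned to 0.077 after median-ratio scaling without AL4. Cldn3 turned to 0.080 after median-ratio scaling, 0.088 with no filter as well and 0.17 with voom, and ranged from -0.29 to 0.14 when a library was left out (-0.15 to 0.22 after scaling, with 0.16 without AL4 or without CR3 and 0.21 without CR1). The cause was not tested. The settings that combine median-ratio scaling with no filter or with a library left out were added after seeing the data. No paired analysis was possible because the columns carry no mouse number of the labels. Of the 84 members, 75 were below the level for a test, and depth limits what can be said of the 27 with 1 to 10 reads in all.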
